A study of Mus musculus with 18 samples.

Results

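The nuclear circular RNAs (circRNAs) of the mouse embryonic fibroblast line NIH/3T3 were compared between wild-type (WT) cells and cells lacking the exportin XPO4 (XPO4 KO). The comparison rests on the 4 samples whose titles name the nuclear circRNA fraction, 2 of each genotype, out of 12 circRNA samples and 18 samples in the series. The KO line was made by CRISPR-Cas9 editing with the same edit in both copies of Xpo4, and clones of other edits were not analysed here. Nothing in the labels says that the replicates came from separate cultures, so each p-value measures the spread between these samples, which may be technical. Nuclear RNA of both genotypes was digested with RNase R, an exonuclease that removes linear RNA, and no treatment or time point separated the groups. The question was whether nuclei without XPO4 hold more circRNAs made of exons.

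A circRNA forms when a splice donor at the end of an exon joins back to a splice acceptor upstream of it, which closes the RNA into a covalent ring. Circles made of exons alone are found mostly in the cytoplasm, whereas circles that keep an intron tend to stay in the nucleus. Exportins of the karyopherin family carry cargo out through the nuclear pore together with the GTPase Ran, and XPO4 is known for the export of the translation factor eIF5A and of Smad3.

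Over the 4 nuclear samples, 1166 backsplice junctions were listed, out of 16171 in the whole series. Of these, 677 began and ended on annotated exon edges (58.1%), and are called exonic circRNAs below. The other 489 did not, and are called non-exonic junctions. The exonic circRNAs came from 576 host genes, of which 498 gave a single listed circle and 78 gave 2 or more. Both ends lay in the same gene for 674 of them, and 667 had a protein-coding host. Their median genomic span was 4990 bp and their median spliced length 394.5 nt over a median of 3 exons, for the 666 with a transcript model, and 72 consisted of 1 exon. A circle starting at the second exon of its transcript was seen 232 times, against 4 circles that started at the first, which has no upstream splice acceptor in that transcript. Of the non-exonic junctions, 221 lay within introns, 128 between genes, 93 over an annotated exon without meeting its edges and 40 had 1 end on an exon edge. A further 7 were listed under several positions. The median span of the non-exonic junctions was 241 bp, and 62.2% of the 482 with a single position spanned under 300 bp, against 3.10% of the exonic circRNAs.

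The sequences at the junctions were read from the genome for each class. All 677 exonic circRNAs and all 482 non-exonic junctions of a single position were flanked by AG before and GT after the circle, the letters of the splice acceptor and donor, on one strand of GRCm38. The junctions had been called with find_circ before deposition, and whether that step required these letters was not tested. Their presence in every junction is therefore no evidence that either class arose by splicing. For exonic circRNAs that strand was by construction the strand of the host gene. Of 354 non-exonic junctions inside a gene, 173 had the AG and GT on the strand of the gene (48.9%) and 181 had them on the other strand. The following 6 junctions belong to circles the results turn on, 2 of them the most-read circles of hosts whose circRNA the study imaged and 4 among those with the smallest p in either direction. Each is read 5′ to 3′ on the strand of its gene across the backsplice, with the last 20 bases of the circle in lower case and the first 20 in capitals.
circHipk3 (chr2:104470749-104471847, minus strand, exon 2 of Hipk3): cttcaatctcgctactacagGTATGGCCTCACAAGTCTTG
circNfix (chr8:84771784-84772315, minus strand, exon 2 of Nfix): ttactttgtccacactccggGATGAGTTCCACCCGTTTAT
circAtxn2 (chr5:121772667-121778105, plus strand, exons 6 to 8 of Atxn2): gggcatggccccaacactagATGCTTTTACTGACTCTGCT
circAlg12 (chr15:88811297-88812159, minus strand, exons 6 to 7 of Alg12): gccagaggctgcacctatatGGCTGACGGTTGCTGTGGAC
circSlc30a7 (chr3:115978644-115984974, minus strand, exons 6 to 8 of Slc30a7): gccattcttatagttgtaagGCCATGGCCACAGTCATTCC
circBlvrb (chr7:27459256-27459652, plus strand, exons 2 to 3 of Blvrb): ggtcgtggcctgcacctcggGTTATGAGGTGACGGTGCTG

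An exonic circle and 2 short non-exonic ones are shown whole, with the AG before and the GT after in capitals. The first is exon 3 of Fgfr1, the fibroblast growth factor receptor 1. The second lies in an intron of Bpifa3, on the strand opposite to the gene, and the last lies between annotated genes.
circFgfr1 (chr8:25555508-25555774, plus strand, 267 bases): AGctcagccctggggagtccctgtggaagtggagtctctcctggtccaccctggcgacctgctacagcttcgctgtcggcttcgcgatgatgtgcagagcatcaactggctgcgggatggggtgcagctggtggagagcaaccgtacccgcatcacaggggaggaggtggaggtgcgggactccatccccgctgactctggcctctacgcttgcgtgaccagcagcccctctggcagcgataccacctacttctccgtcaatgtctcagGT
Bpifa3 intron (chr2:154136074-154136230, minus strand, 157 bases): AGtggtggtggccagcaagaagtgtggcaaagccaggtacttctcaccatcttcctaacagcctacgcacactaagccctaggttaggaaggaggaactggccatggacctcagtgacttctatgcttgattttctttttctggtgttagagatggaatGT
Between genes (chr9:46555490-46555710, minus strand, 221 bases): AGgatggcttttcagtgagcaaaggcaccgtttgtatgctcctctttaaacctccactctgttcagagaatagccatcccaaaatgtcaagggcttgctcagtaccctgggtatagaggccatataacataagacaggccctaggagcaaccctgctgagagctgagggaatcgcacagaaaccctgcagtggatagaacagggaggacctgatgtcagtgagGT

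The nuclear samples were shallow, with between 2189 and 4383 junction reads, so most circles rested on a few reads and 1 read more or less moved a level markedly. Every junction was listed in at least 2 of the 4 samples and 710 in all 4. Over all junctions the replicates differed by less than sampling noise would give, with a chi-square per junction of 0.833 in WT and 0.772 in KO. Most counts were of a few reads and every junction was listed in at least 2 samples, so this value cannot show how well the replicates matched. Over the junctions with at least 20 reads in the pair the replicates differed by more than sampling noise, with 3.39 over 9 junctions in WT and 3.34 over 12 in KO. They were counted as separate samples. The labels of the mRNA samples of the same lines could be checked only in part. Xpo4 stood at 40.0, 28.1 and 40.5 CPM, a count scaled to the depth of the sample, in the samples titled KO and at 33.0, 31.4 and 31.1 in those titled WT, which overlap, while the heading inside each mRNA file names the other genotype. A count over the whole gene does not show a small edit, and the nuclear lists hold no linear Xpo4 mRNA. All 8 fibroblast markers were over 1 FPKM, a level per length and depth, in the mean of the 6 mRNA samples, from 39.0 to 921. No epithelial or endothelial marker reached 1 FPKM, and only Cd68 and Snap25 of the immune and neuronal markers did, at 3.83 and 1.65.

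Exonic circRNAs carried about 2 times as many junction reads in KO as in WT nuclei. Their reads summed to 1352 and 1465 in the WT samples and to 2679 and 2813 in the KO samples. Both KO samples thus lay well above both WT samples, with a 1.95-fold higher mean in KO (0.96 on the log2 scale). Each sample's level, the mean log10 junction reads of the exonic circRNAs listed in it, was 0.275 ± 0.028 in WT and 0.544 ± 0.017 in KO (SD, n = 2). The difference of 0.269 was larger than the spread between replicates. More circles were listed too, 657 and 662 of the 677 in the KO samples against 567 and 550 in the WT samples. Junction reads of both classes together were also more in KO, 3743 and 4383 against 2189 and 2635 in WT, a ratio of 1.68. A sample with more reads lists more circles, so the number listed is not separate from the read sums. The exact two-sided permutation test gave p = 0.333 for the level and for the read sum, which is the smallest p that 2 samples against 2 allow (0.556 after Benjamini-Hochberg adjustment over 5 comparisons), so the design cannot reach 0.05. Scaling the samples to the same total of junction reads left a difference in level of 0.042.

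**Figure D1:**
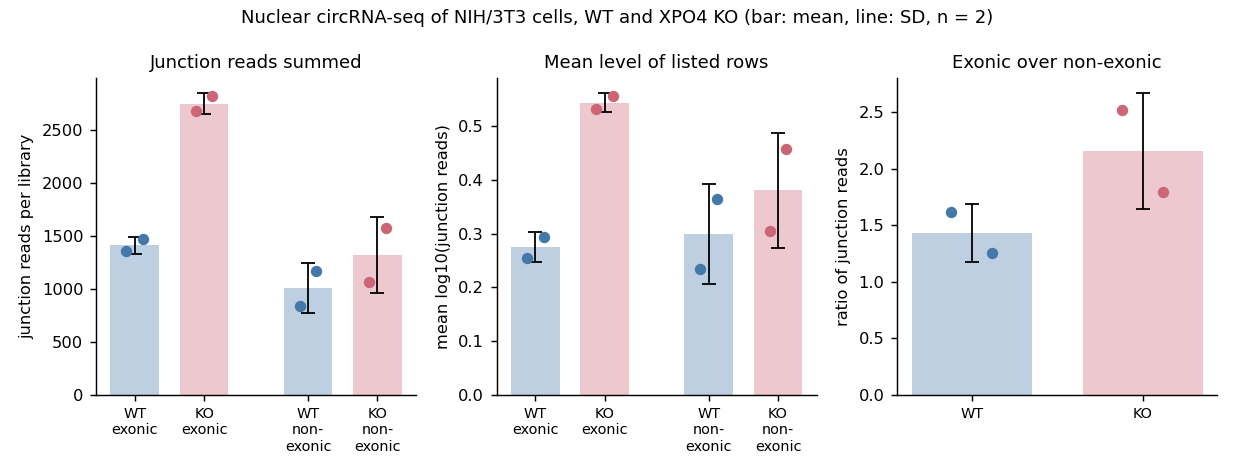
Junction reads summed per nuclear sample, mean log10 reads of listed junctions, and the ratio of exonic to non-exonic reads, for WT (blue) and XPO4 KO (red); points are samples, bars the mean and lines the SD (n = 2). Exonic reads run from 1352 to 1465 in WT and from 2679 to 2813 in KO, while the non-exonic reads of the genotypes overlap.

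As a class, non-exonic junctions did not separate the genotypes by summed reads or by mean level. Their reads summed to 837 and 1170 in WT against 1064 and 1570 in KO, so that the lower KO sample lay between the WT samples. Their level was 0.299 ± 0.093 in WT and 0.381 ± 0.107 in KO (SD, n = 2), a difference of 0.082 within the spread between replicates (exact permutation p = 0.667, adjusted p = 0.667). Under scaling to the same total this difference was -0.145. The read sums had p = 0.667 as well, by the same exact permutation test, with a 1.31-fold higher mean in KO.

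A scale factor common to all junctions of a sample cancels in the ratio of the classes within it. Which junctions of each class were listed may still depend on depth, which was not tested. Within each genotype the sample with more junction reads had the lower ratio, although the KO samples had more reads than the WT samples. Exonic reads were 1.62 and 1.25 times the non-exonic reads in the WT samples and 2.52 and 1.79 times in the KO samples. The exonic share of junction reads was 61.8% (95% Wilson interval 59.7 to 63.8) and 55.6% (53.7 to 57.5) in WT, and 71.6% (70.1 to 73.0) and 64.2% (62.7 to 65.6) in KO. Both KO samples lay above both WT samples, although WT replicate 1 and KO replicate 2 had overlapping intervals. The mean log2 ratio was 0.51 ± 0.26 in WT and 1.09 ± 0.35 in KO (SD, n = 2), a difference of 0.58 with p = 0.333 in the exact permutation test. It was 0.35 over the junctions with at least 10 reads and 0.33 without KO replicate 1. These intervals cover counting error only, since reads without molecular identifiers are not independent molecules. In bulk RNA, fewer nuclei and less circRNA per nucleus cannot be told apart.

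The distribution of reads over exonic circRNAs, as deposited and without scaling, was shifted toward more reads in KO. A circle listed in a WT sample had a median of 2 junction reads, and 45.9% and 41.6% of the circles listed there had a single read. In the KO samples the median was 4 reads and the share with a single read was 10.7% and 7.70%. Circles with at least 5 reads numbered 60 and 82 in WT against 242 and 225 in KO. The non-exonic junctions had medians of 2 and 2 reads in WT against 2 and 3 in KO, and 5 and 78 of them reached 5 reads in WT against 29 and 137 in KO. In that class replicate 2 of each genotype stood above replicate 1.

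**Figure D2:**
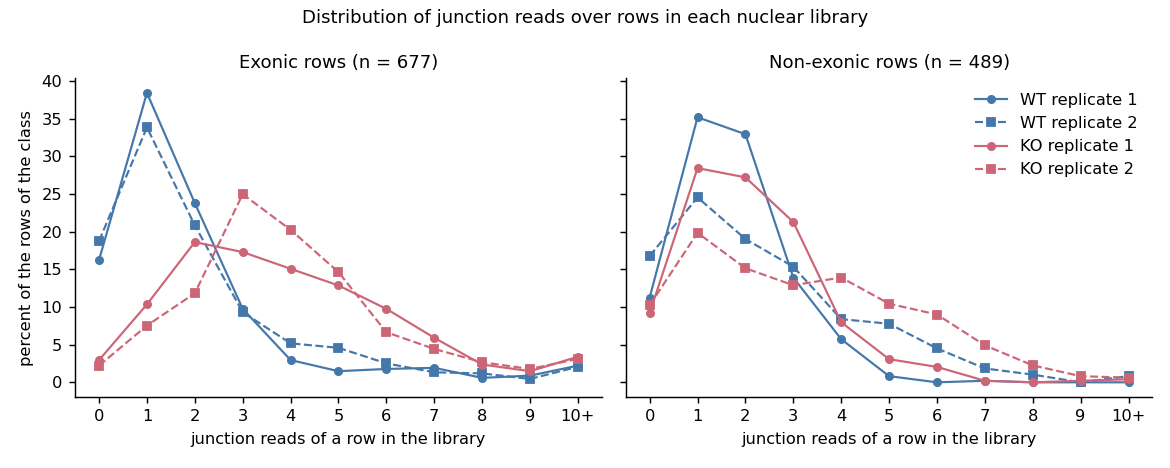
Percent of the junctions of each class (y) with a given number of junction reads (x) in each nuclear sample, for 677 exonic (left) and 489 non-exonic junctions (right). The exonic curves of both WT samples peak at 1 read and those of the KO samples at 2 and 3 reads, whereas the non-exonic curves of all 4 samples peak at 1 read.

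Most single exonic circles had more reads as deposited in KO. The summed reads of the KO samples exceeded those of the WT samples for 530 of the 677 exonic circRNAs, were fewer for 127 and equal for 20. Both KO samples lay above both WT samples for 378 of them (55.8%) and below both for 60 (8.86%), where over all 1166 junctions these shares were 47.3% and 13.6%. For the 489 non-exonic junctions the numbers were 174 above (35.6%) and 98 below (20.04%). Counting reads relative to the non-exonic reads of the same sample, 353 exonic circRNAs lay above and 92 below, where over all junctions the shares were 45.8% and 21.4%. Relative to the total of junction reads, 273 exonic circRNAs lay above and 126 below, where over all junctions the shares were 34.9% and 27.1%. After trimmed-mean (TMM) scaling, 237 exonic circRNAs lay above and 147 below, where over all junctions the shares were 27.8% and 29.8%. Exonic circRNAs above thus outnumbered those below under each scaling, but by far less after TMM than as deposited. The non-exonic junctions turned their direction with the scaling. Of them, 181 lay above and 157 below relative to the non-exonic reads, 134 and 190 relative to the total, and 87 and 201 after TMM. No read at all was listed in WT nuclei for 19 exonic circRNAs, and none in KO nuclei for 4.

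The excess in KO nuclei was larger among circles of several exons. Circles of 1 exon carried 232 and 267 reads in WT against 328 and 407 in KO, a ratio of summed reads of 1.47. That ratio was 1.85 for the 221 circles of 2 exons, 2.19 for the 250 of 3 or 4 exons and 2.41 for the 123 of 5 or more. Within each sample, reads of circles with 2 or more exons were 4.65 and 4.33 times those of 1-exon circles in WT and 7.01 and 5.80 times in KO, which do not overlap (exact permutation p = 0.333, adjusted p = 0.370 over 10 such ratios). Without the 10 most-read circles the ratios were 6.70 and 7.34 for WT, against 8.72 and 8.26 for KO, a smaller difference in the same direction. Spliced length moved alike, since circles longer than the median had 0.842 and 0.909 times the reads of shorter ones in WT and 0.963 and 1.09 times in KO.

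Most of the exonic circRNAs in the nuclei were also listed outside them. Of the 677, 472 were in the lists of the cytoplasmic samples (69.7%), 493 in those of whole-cell RNA (72.8%) and 137 in neither. None of the 489 non-exonic junctions was in either list. The 472 circles shared with the cytoplasm carried 1026 and 1123 nuclear reads in WT against 1918 and 2069 in KO, a ratio of 1.86. The 137 circles in neither list carried 203 and 213 in WT against 488 and 492 in KO, a ratio of 2.36. In the WT samples the reads of these nuclear-only circles were 0.198 and 0.190 times those of the shared ones, against 0.254 and 0.238 times in KO (exact permutation p = 0.333, adjusted p = 0.370), so both sets were higher in KO, the nuclear-only set by more.

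**Figure D3:**
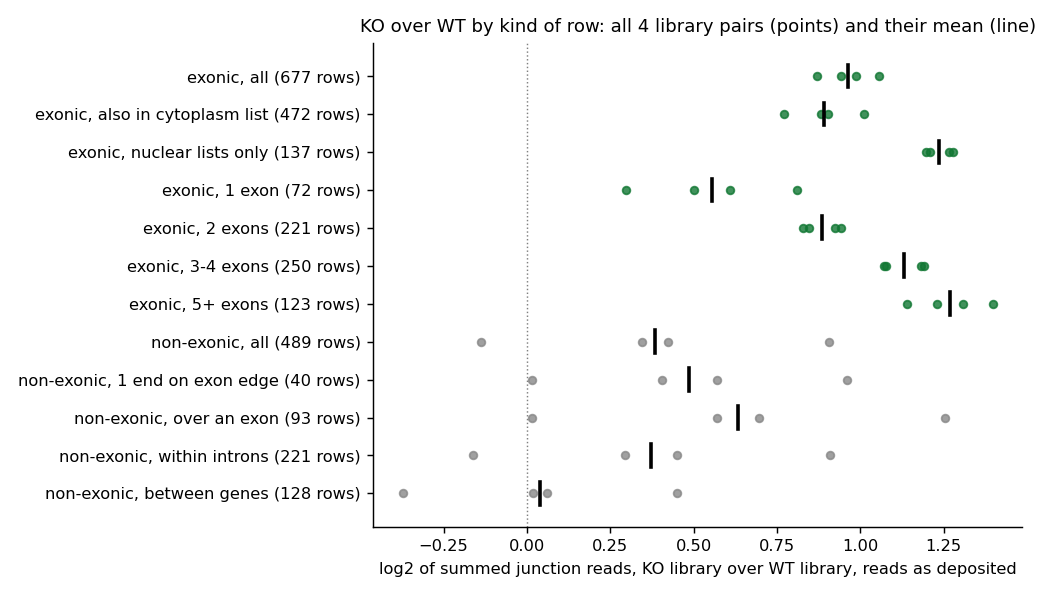
Log2 of the summed junction reads of a KO sample over a WT sample (x) for kinds of exonic (green) and non-exonic junctions (grey), reads as deposited; points are the 4 pairings of samples, which share samples, and black lines their mean. Exonic points rise from circles of 1 exon to circles of 5 or more, and non-exonic junctions between genes lie around 0.

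Among the non-exonic junctions, those between genes carried nearly the same reads in both genotypes, 238 and 321 in WT against 248 and 325 in KO, a ratio of 1.03. The ratio was 1.31 within introns, 1.41 with 1 end on an exon edge and 1.57 over an annotated exon. Junctions spanning under 300 bp had a ratio of 1.14 and longer ones of 1.53. The ratio was 1.38 for junctions with the splice letters on the strand of the gene and 1.39 for those on the other strand. Set against the junctions between genes, the exonic reads were 5.68 and 4.56 times as many in WT and 10.8 and 8.66 times in KO, which do not overlap. Set against the non-exonic junctions of 300 bp or more, they were 4.66 and 3.53 times as many in WT and 6.24 and 4.31 times in KO, which do overlap (exact permutation p = 0.667, adjusted p = 0.667).

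The exonic circles with the highest mean nuclear reads differed among themselves, and summed up they lay closer to WT than the rest. The 10 most-read circles summed to 107 and 157 reads in WT against 109 and 187 in KO, a ratio of 1.12, while the other 667 had a ratio of 2.04. circNfix, from exon 2 of the gene for the transcription factor NFIX, had the most reads, 5 and 43 in WT against 14 and 48 in KO, and its replicates differed far more than its genotypes. circFgfr1 had 29 and 21 reads in WT against 16 and 12 in KO, so that both KO samples lay below both WT samples. circTcf25, from exons 3 to 4 of Tcf25, had 20 and 19 reads in WT against 3 and 27 in KO. circPvt1, from exon 2 of the long noncoding RNA gene Pvt1 next to Myc, had 1 and 14 reads in WT against 10 and 28 in KO. The KO samples lay on both sides of the WT samples for circTcf25, and overlapped them for circPvt1.
circSetbp1, whose host encodes a SET-binding protein, had 17 and 15 reads in WT against 3 and 16 in KO. circZfp516 had 10 and 6 in WT against 16 and 15 in KO, with both KO samples above. circHipk3, from the homeodomain-interacting protein kinase gene Hipk3, had 12 and 13 reads in WT against 8 and 8 in KO, both below WT. circAtxn2, also among the 8 most-read, went far in one direction, with 0 and 1 reads in WT against 20 and 19 in KO. It passed the test described next, whereas the other 7 did not, with adjusted p between 0.179 and 0.987. No nuclear sample listed an exonic circle of Specc1, Wwc1 or Adarb1, the other hosts whose circles the study imaged in these cells.

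The most-read circles of Hipk3 and Nfix had more junction reads in the cytoplasmic samples than in the nuclear ones. circHipk3 had 137 and 132 reads in the WT cytoplasm and 14 and 98 in the KO cytoplasm. circNfix had 1837 and 1871 in the WT cytoplasm and 682 and 685 in the KO cytoplasm, against 2 and 0 in WT whole-cell RNA and 681 and 677 in KO whole-cell RNA. The WT whole-cell samples thus listed almost none of the circNfix reads of the WT cytoplasm, and the same held for circPvt1, with 834 and 838 in the WT cytoplasm and 1 and 2 in WT whole-cell RNA. No nuclear value above rests on the whole-cell samples beyond whether a circle was listed there.

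Single circles entered the quasi-likelihood test of edgeR, fitted on the 651 junctions with at least 10 reads over the 4 samples, of which 443 were exonic. The common dispersion of the fit, its measure of spread beyond sampling noise, was low at 0.018. Junctions with at least 20 reads in the pair differed between replicates by more than sampling noise. The adjusted p-values below rest in part on that low spread and may be too small. After TMM scaling, which sets the samples to a common level, 11 junctions rose and 55 fell at an adjusted p under 0.05, that is 1.69% and 8.45% of those tested. Of the exonic circRNAs 8 rose and 22 fell (1.81% and 4.97% of 443), and of the non-exonic junctions 3 rose and 33 fell (1.44% and 15.9% of 208). These directions are relative to the scaling. The median log2 fold change over all 651 junctions, KO over WT, was 0.44 after TMM, 0.63 with the total of junction reads as scale, 0.97 with the non-exonic reads and 1.34 without scaling. With the total, 10 junctions rose and 28 fell, with the non-exonic reads 5 rose and 7 fell, and each of these 38 and 12 calls was among the 66. Without scaling no junction passed (smallest adjusted p = 0.176), although 120 exonic circRNAs were higher and 6 lower at an unadjusted p under 0.05. DESeq2 called no junction either, with 59 at an unadjusted p under 0.05, and the number of calls was 26, 7, 0 and 10 without WT replicate 1, WT replicate 2, KO replicate 1 and KO replicate 2.

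**Figure D4:**
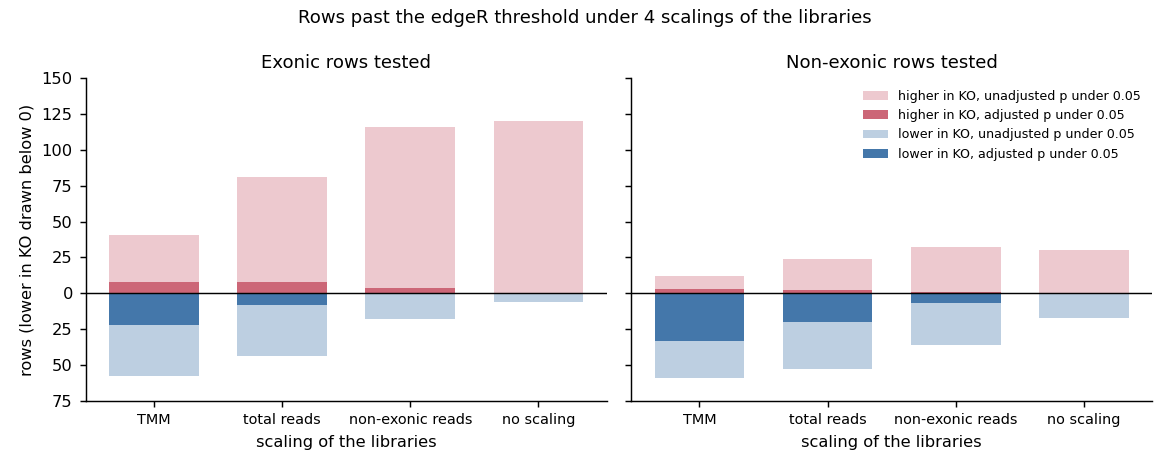
Number of junctions higher (red, above 0) and lower (blue, below 0) in KO by edgeR under 4 scalings, pale for unadjusted and dark for adjusted p under 0.05. Exonic junctions lower in KO at an adjusted p under 0.05 number 22 after TMM and 0 without scaling, while those higher at an unadjusted p number 41 and 120.

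The 6 named among the 8 exonic circles that rose had 0 or 1 read in each WT sample. The filter asked for 10 reads over the 4 samples, so circles without a WT read entered the test through KO reads alone. Their absence from WT nuclei is therefore no separate result. circAtxn2, from the gene of the RNA-binding protein ataxin-2, had 0 and 1 reads in WT against 20 and 19 in KO, with a log2 fold change of 4.12 ± 1.19 (SE; edgeR adjusted p = 0.016). The read ratio of 39 has a counting interval from 6.60 to 1579. Outside the nucleus the circle was listed in WT cells as well, with 12 and 28 reads in the WT cytoplasm. circAlg12, from a mannosyltransferase gene of N-glycan assembly, had no read in WT and 7 and 6 in KO (edgeR adjusted p = 0.024). Against a floor of 3 reads over the WT pair it was 4.33-fold higher. Such folds against a floor are of reads as deposited, without the scaling of the test. They are not lower bounds, and the counting interval of this one starts at 3.05. circAlg12 too was abundant in the WT cytoplasm, with 156 and 124 reads, so that WT cells listed the circle outside the nuclear samples. circNfx1, from exons 18 to 21 of a zinc finger gene, had no read in WT and 7 and 5 in KO, 4-fold higher against the floor (edgeR adjusted p = 0.027). circAdamts7, from the gene of a secreted metalloproteinase, had none in WT and 3 and 9 in KO, also 4-fold higher against the floor (edgeR adjusted p = 0.027). The counting intervals of both start at 2.78. Both WT samples were at 0 for these circles, and neither KO sample was. circPtchd4 had 0 and 1 reads in WT against 8 and 13 in KO (log2 fold change 3.23 ± 1.01, edgeR adjusted p = 0.027). circAmfr, from exons 3 to 4 of the gene of an endoplasmic reticulum ubiquitin ligase, had 1 and 0 in WT against 10 and 10 in KO (3.17 ± 1.01, edgeR adjusted p = 0.031). circPtchd4 and circNfx1 had no read in any cytoplasmic or whole-cell sample, whereas circAmfr had 26 and 18 in the WT cytoplasm. None of the 6 passed without scaling, where the adjusted p lay between 0.176 and 0.207, and none passed in DESeq2.

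The 6 named among the 22 exonic circles that fell had 3 to 13 reads in each WT sample and at most 4 in each KO sample. circSlc30a7, from the gene of a zinc transporter of the Golgi, had 13 and 10 reads in WT against 2 and 2 in KO, the smallest p among the exonic circles that fell (log2 fold change -3.38 ± 0.74, edgeR adjusted p = 0.00085). Its reads also lay lower in KO without scaling (-2.45, adjusted p = 0.176). circBlvrb, from the biliverdin reductase B gene, had 8 and 6 in WT against 2 and 1 in KO (-3.04 ± 0.76, edgeR adjusted p = 0.0041). circSh3rf3 had 9 and 9 in WT against 2 and 3 in KO (-2.72 ± 0.70, edgeR adjusted p = 0.0054), and was listed with 38 and 36 reads in KO whole-cell RNA against 0 and 1 in WT. In all these circles each KO sample lay below each WT sample. circArhgap32 had 9 and 8 in WT against 1 and 4 in KO (-2.64 ± 0.69, edgeR adjusted p = 0.0067). circZfp438 had 3 and 6 in WT against 0 and 1 in KO (-3.74 ± 0.94, edgeR adjusted p = 0.0077). circCcn5, from the gene of a matricellular protein of the CCN family, had 4 and 10 in WT against 1 and 3 in KO (-2.66 ± 0.72, edgeR adjusted p = 0.0080). Except for circSlc30a7, none of these circles was in the cytoplasmic lists. The 6 circles kept their direction without scaling and with the non-exonic reads as scale, but none passed there.

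**Figure D5:**
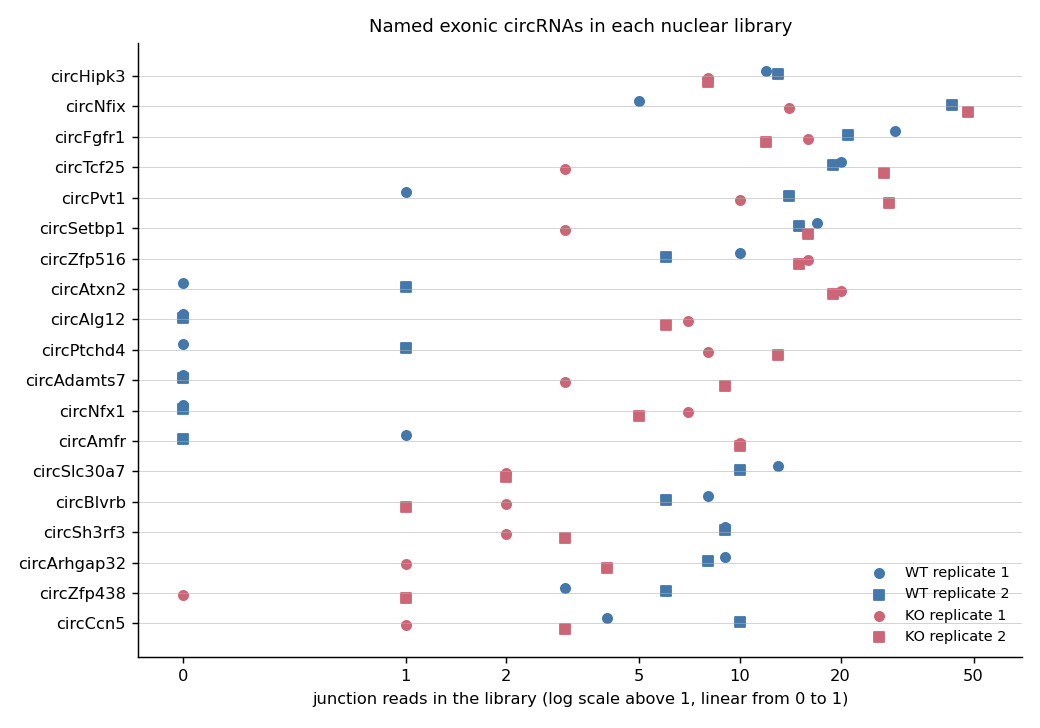
Junction reads of 19 exonic circRNAs in each nuclear sample (x, logarithmic above 1 read and linear from 0 to 1), WT in blue and KO in red, replicate 1 as circles and replicate 2 as squares. From circAtxn2 to circAmfr the WT samples sit at 0 or 1 read, and from circSlc30a7 to circCcn5 the KO samples sit at 4 reads or fewer.

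Of the non-exonic junctions with the most reads, 3 of 4 were listed under several positions. The first, with 8 positions between chr17:39843204-39845744, had 0 and 2 reads in WT against 30 and 32 in KO, and its test reached an edgeR adjusted p of 0.049. The next 2 repeated the position and the counts of the exonic circles of Ifi202b and Kat6b, with 2 and 16 reads in WT against 9 and 8 in KO, and with 3 and 12 in WT against 6 and 9 in KO, so these reads enter both classes. The last joined an exon edge of Cbfb to a position off any edge and had 2 and 6 reads in WT against 10 and 8 in KO. Without the junctions of several positions, 8 exonic circRNAs rose and 25 fell.
A junction over the fibronectin gene Fn1, with its splice letters on the strand opposite to the gene, had no read in WT and 3 and 8 in KO (edgeR adjusted p = 0.036). Against a floor of 3 reads over the WT pair it was 3.67-fold higher, with a counting interval that starts at 2.51. This junction met the filter of 10 reads through KO reads alone. One over the microRNA gene Mir882 had 0 and 1 reads in WT against 6 and 11 in KO (edgeR adjusted p = 0.044), and the junction between genes shown above had 1 and 0 in WT against 5 and 10 in KO (edgeR adjusted p = 0.065). The junctions that fell were led by one in an intron of Tnr, the gene of the brain matrix protein tenascin-R, with 7 and 8 reads in WT against 0 and 1 in KO (log2 fold change -4.47 ± 0.89, edgeR adjusted p = 0.00036). The Bpifa3 intron shown above had 5 and 5 reads in WT and none in KO (edgeR adjusted p = 0.00075), and the mRNA of Bpifa3 was listed at 0 in all 6 mRNA samples. A junction over an exon of Hs6st1, a heparan sulfate sulfotransferase gene, on the other strand, had 2 and 8 in WT and none in KO (edgeR adjusted p = 0.00075). With a floor of 3 reads over the KO pair both were 3.33-fold lower, and the counting interval of their KO over WT ratio reached up to 0.446. Both met the filter of 10 reads through WT reads alone. One over Srrm3, a splicing regulator gene of neurons, had 3 and 8 in WT against 1 and 0 in KO (edgeR adjusted p = 0.0024). Its splice letters too lay on the strand opposite to the gene. The mean mRNA level was 0.418 FPKM for Tnr and 0.229 FPKM for Srrm3, and over all non-exonic junctions inside a gene 231 of 354 had a gene over 1 FPKM, against 649 of the 677 exonic circRNAs.

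Hosts with several circles gave several levels from one gene. Tasp1, the gene of the protease taspase 1, gave 5 exonic circRNAs with 11 and 26 reads in WT against 15 and 24 in KO, which overlap. Gas2, a growth-arrest gene that links actin and microtubules, gave 4 with 4 and 6 in WT against 22 and 16 in KO, and Tulp4 gave 4 with 13 and 11 in WT against 22 and 23 in KO. Zfp827 gave 4 circles with 11 and 9 in WT against 12 and 20 in KO. For Gas2, Tulp4 and Zfp827 both KO samples lay above both WT samples. The actin filament-associated protein gene Afap1 gave 4 with 9 and 4 in WT against 7 and 15 in KO.

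Grouped by what their hosts encode, the exonic circles moved mostly with the class as a whole. Both KO samples lay above both WT samples for 14 of 22 circles of hosts in cytoskeleton, adhesion and GTPase regulation, for 8 of 14 in the ubiquitin pathway, for 9 of 17 in RNA binding and splicing and for 4 of 7 in nuclear transport, near the 55.8% of all exonic circRNAs. The share was lower for chromatin and transcription, with 14 of 32, for kinases and phosphatases, with 8 of 20, for TGF-beta, BMP and Smad signaling, with 3 of 7, and for well-studied circRNA hosts, with 4 of 11, and was 0 of 2 for the imaged hosts and for the neuronal list, where no test of the difference was made. Among the hosts of nuclear transport, Ranbp3 had 0 and 1 reads in WT against 8 and 6 in KO (log2 fold change 2.66, edgeR adjusted p = 0.079), and the summed reads of all 7 circles were 8 and 8 in WT against 26 and 28 in KO. The circles of Cacna1c, the only neuronal host found, had 16 and 13 in WT against 7 and 15 in KO. Of the 28 circles tested in chromatin and transcription 1 rose and 1 fell, where 1.81% and 4.97% of all exonic circRNAs tested did so, and in the other lists none passed. The circle that rose came from Ehmt1, a histone H3 lysine methyltransferase gene, with 1 and 0 reads in WT against 10 and 9 in KO, and the one that fell from Tead1, a transcription factor of the Hippo pathway, with 9 and 8 in WT against 4 and 4 in KO. The median log2 fold change after TMM ranged from -1.29 for the neuronal host and -1.06 for the imaged hosts to 1.43 for nuclear transport, beside 0.44 over all 443 exonic circRNAs tested.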

How the data were processed

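CircRNA-seq of RNase R-treated nuclear RNA was analysed, with 2 samples of each genotype, grouped by the sample titles. The authors trimmed adapters, ran find_circ and deposited a count of junction reads for each circRNA with its position on GRCm38 (mm10). TPM is named in their methods, yet these files hold whole numbers with differing totals, read here as counts. Filters before deposition are not given in the sources used here. The mRNA counts per gene, which the authors made with featureCounts (version 2.0.0) after HISAT2, gave the exon edges and, as the mean FPKM over 6 samples, host levels.

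Junctions absent from a sample were entered as 0, and GRCm38 with GENCODE M21 supplied hosts, exons and sequences. For single junctions glmQLFit and glmQLFTest of edgeR (version 4.0.16) in R (version 4.3.3) were used, with TMM over the junctions tested, at least 10 reads in all and Benjamini-Hochberg adjustment. The SE given with a log2 fold change of edgeR was derived from the F statistic of the test, as the absolute fold change over the square root of F. DESeq2 (version 1.42.0) was an alternative. Values per sample were compared by exact two-sided permutation (scipy 1.17.1). Fits were tested on simulated data whose dispersion differed from that of the fit. Depth was 2189 to 4383 junction reads.

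Junctions named are the most-read exonic circle of each imaged host, the 8 exonic and 4 non-exonic junctions with the most reads, the 6 exonic and 4 non-exonic ones with the smallest p in each direction, and the 5 hosts with the most circles, extended to 6 for a tie, of which 1 is not reported here. Ehmt1, Tead1 and Ranbp3 were named after their values were seen. The comparison and the gene lists (imaged hosts, well-studied circRNA hosts, TGF-beta and Smad, chromatin and transcription, kinases, cytoskeleton, ubiquitin, RNA binding, nuclear transport, neuronal) were chosen with earlier results of these data known. Cell markers were used on mRNA counts only.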

Additional observations from a re-analysis of the deposited data

How the results depend on the processing

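The direction of the exonic level, of both read sums and of the log2 ratio of exonic to non-exonic reads held in every alternative run, while the non-exonic level changed sign to -0.145 under scaling to the same total. Without single replicates the exonic level differed by 0.249 to 0.289, the non-exonic level by 0.0062 to 0.158, exonic reads by 0.906 to 1.02, non-exonic reads by 0.105 to 0.666 and the ratio by 0.333 to 0.824 (log2). The number of single junctions called moved most. It was 66 in all, 0 without scaling, 38 with total reads, 12 with non-exonic reads, 0 in DESeq2, 40 without the filter and 0 to 26 without single replicates. Exonic circRNAs that rose numbered 8, with 0 without scaling, 4 with non-exonic reads, 0 in DESeq2, 0 when exonic circRNAs were fitted alone (with or without scaling) and 0 to 1 without single replicates. Those that fell numbered 22, with 0, 8 and 0 under no scaling, total and non-exonic reads, 0 in DESeq2, 10 without the filter, 1 and 0 when fitted alone with and without scaling, and 0 to 5 without single replicates. Non-exonic junctions that rose numbered 3, with 0 without scaling, 1 with non-exonic reads, 0 in DESeq2, 1 without the filter and 0 to 1 without single replicates. Those that fell numbered 33, with 0, 20 and 7 under the scalings, 0 in DESeq2 and 0 to 21 without single replicates. The cause was not tested.

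Same-numbered replicates share only a number, and the correlation of their deviations from the group means was -0.030. In the fit with a replicate block 72 junctions were called, 8 exonic higher and 28 lower. The fit of exonic circRNAs alone without scaling and the one without junctions of several positions were added after the data were seen, the latter with 68 calls.

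Among 365 values of the 30 named junctions under alternatives, 210 kept direction and call, 133 lost the call, 1 gained it and 21 changed sign, all of which had not passed. The log2 fold change of circNfix became 0.37 without scaling in both fits, 0.016 with non-exonic reads, 0.07 without KO replicate 1, and -1.63 to 1.52 without single replicates. circPvt1 became -0.46 without WT replicate 1, and ran from -0.47 to 3.06 without single replicates. circZfp516 became 0.94 without scaling in both fits, 0.19 with total reads, 0.55 with non-exonic reads, 0.11 in DESeq2, 0.19 without the filter, 0.011 with the replicate block, 0.06 without KO replicate 2, and -0.44 to 0.48 without single replicates. The several-position junctions repeating Ifi202b and Kat6b ran from -1.78 to 0.98 and from -1.55 to 0.23 without single replicates, and the latter became 0.00 without scaling. The Cbfb junction became -0.0029 without KO replicate 1 and ran from -0.30 to 1.06 without single replicates.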

Other observations

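Across junctions, read counts of the same genotype went together and those of different genotypes did not. Over the 677 exonic circRNAs, Spearman's rho was 0.427 between the WT replicates and 0.331 between the KO replicates, and from -0.126 to -0.063 between a WT and a KO sample. Over the 489 non-exonic junctions it was 0.362 and 0.606 within genotypes and from -0.538 to -0.293 between them. These are descriptions across junctions that share samples, most counts are under 5 reads, and every junction was listed in at least 2 of the 4 samples. The part of these limits in the positive values within genotypes and the negative ones between them was not tested.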
